A study of Mus musculus with 16 samples.

Results

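Dnase1, Ethe1, Gng12, Plekha6 and Klk1b22 are 5 genes, of 19938 genes tested, that were picked because their transcripts were lower in mouse kidneys after deletion of Vhl than in control kidneys. Each was read from the array row that the probe table pairs with its symbol alone, and each of the 5 genes had 1 such row. The genes were chosen by their measured levels in the VHL-KO and Control arrays, so the values of that comparison are given below as a description. The comparison whose arrays the choice did not use is Vhl deletion in injured kidneys, and the genes were tested there. The limma fit used for that test took its estimate of spread from all 4 groups. Its SE and p therefore also draw on the VHL-KO and Control arrays of the choice. The exact permutation test, and the alternative with the compared groups fitted alone, do not.

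Total RNA from halved kidneys was measured on 16 arrays, 1 per labelled biological replicate, in 4 groups. The VHL-KO/AKI group (n = 5) received doxycycline, at 0.1 mg per 10 g of body weight under the skin 4 days before the kidneys were taken, and glycerol. The AKI group (n = 5) received glycerol alone, as 0.05 ml of a 50% solution per 10 g of body weight in the muscle of the left hind limb, which causes muscle breakdown (rhabdomyolysis) and acute kidney injury (AKI). Both injured groups went without water from 20 h before to 24 h after the glycerol. The VHL-KO group (n = 3) received doxycycline alone, and the Control group (n = 3) was untreated. All 4 groups carried the same transgenes, a Pax8-rtTA-based system in which doxycycline deletes Vhl in renal tubule cells, although the genotype label reads wt where no doxycycline was given. Other kidney cells keep Vhl. No group analysed here had doxycycline with Vhl kept, so the drug and the deletion cannot be told apart, and none had water withdrawn without glycerol. The labels give both sexes and neither sex nor age for a single animal.

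Vhl encodes the substrate-binding part of a ubiquitin ligase that marks the alpha subunits of hypoxia-inducible factors (HIF) for breakdown, so that loss of Vhl leaves HIF active in the presence of oxygen. HIF binds DNA at a short core sequence, ACGTG or GCGTG, and is best known for raising its target genes. The 5 genes are of unlike function. Dnase1 encodes a secreted enzyme that cuts extracellular DNA and is abundant in kidney. Ethe1 is the mitochondrial persulphide dioxygenase of hydrogen sulphide breakdown. Gng12 is a gamma subunit of heterotrimeric G proteins. Plekha6 is a pleckstrin homology domain protein of epithelial cell junctions, and Klk1b22 is a serine protease of the mouse tissue kallikrein family.

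The promoters of Dnase1 and Gng12, whose transcripts passed the test in injured kidneys, are shown because both hold the HIF core letters. Each run is the 250 bases before the first listed start of the gene in RefSeq (build GRCm38.p6), 5′ to 3′ on the plus strand, which is the strand of both genes. Capitals mark ACGTG or GCGTG read on either strand, where CACGT and CACGC are their reverse complements. The Dnase1 window is chr16:4036786-4037035 and the Gng12 window is chr6:66896147-66896396.
Dnase1: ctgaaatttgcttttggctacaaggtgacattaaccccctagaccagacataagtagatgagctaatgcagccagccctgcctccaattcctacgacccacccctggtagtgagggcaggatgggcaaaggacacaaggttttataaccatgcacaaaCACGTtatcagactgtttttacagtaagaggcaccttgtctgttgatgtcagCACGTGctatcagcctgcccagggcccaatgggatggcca
Gng12: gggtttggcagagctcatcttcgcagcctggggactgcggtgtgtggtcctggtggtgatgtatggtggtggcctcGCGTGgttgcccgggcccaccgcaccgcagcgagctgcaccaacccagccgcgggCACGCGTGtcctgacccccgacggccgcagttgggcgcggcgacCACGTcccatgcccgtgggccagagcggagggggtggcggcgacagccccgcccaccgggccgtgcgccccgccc

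The Dnase1 window held 3 matches, beginning 92, 40 and 39 bases before the start, and the last pair overlap in the palindrome CACGTG. The Gng12 window held 4 matches, beginning 174, 119, 116 and 75 bases before the start, of which those at 119 and 116 overlap. The first listed start is not always the 5′ end of the annotated gene. For Dnase1 it lies 78 bases inside the gene, so the matches at 40 and 39 fall after the gene's annotated start, and for Plekha6 it lies 84065 bases inside. For Gng12, Ethe1 and Klk1b22 it is the gene's start. The first listed windows of Ethe1, Plekha6 and Klk1b22 held 0 matches. Of 32851 such windows in the table, 16.6% held ACGTG, 28.2% held GCGTG and 38.6% held either one, counting both strands. The windows also differed in base composition, with 74.4% G and C and 28 CpG dinucleotides for Gng12, and 50.0% and 3 for Dnase1, against medians of 52.4% and 6 over all windows. A match of these letters is a description of the sequence, and binding was not measured.

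The deleted gene was read first. Vhl had levels of 6.41, 6.35, 6.52, 6.66 and 6.54 in the VHL-KO/AKI arrays, against 7.16, 7.12, 7.17, 7.01 and 7.36 in the AKI arrays, on the deposited log2 scale used for every level here. It had 6.70, 6.62 and 6.64 in the VHL-KO arrays, against 7.03, 7.05 and 7.10 in the Control arrays. All 8 arrays of the doxycycline groups lay below all 8 others. The difference was -0.67 (SE 0.067, limma adjusted p = 9.98e-05) in injured kidneys and -0.41 (SE 0.087, limma adjusted p = 0.0565) in uninjured kidneys, and whether the probes lie in the deleted part is not known here.

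Sex-linked transcripts divided the arrays, and some arrays stood apart from their group. Xist, the transcript of the inactive X chromosome, lay at 4.16 to 5.08 in the injured arrays and at 10.23 to 11.47 in the uninjured ones. The mean of 3 Y-linked genes lay at 7.77 to 8.26 in the injured arrays, at 4.81 to 5.01 in the VHL-KO arrays and Control replicates 1 and 2, and at 7.43 in Control replicate 3, which thus carried both signals. Injury and sex-linked signal therefore cannot be told apart in the comparisons of injured with uninjured kidneys, whereas both groups of the injured pair lie on the same side. AKI replicate 4 had a mean correlation of 0.9729 with its own group, against 0.9875 to 0.9885 for the other AKI arrays. Values without Control replicate 3 or AKI replicate 4 are given beside the results of the 5 genes that they move most.

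**Figure D1:**
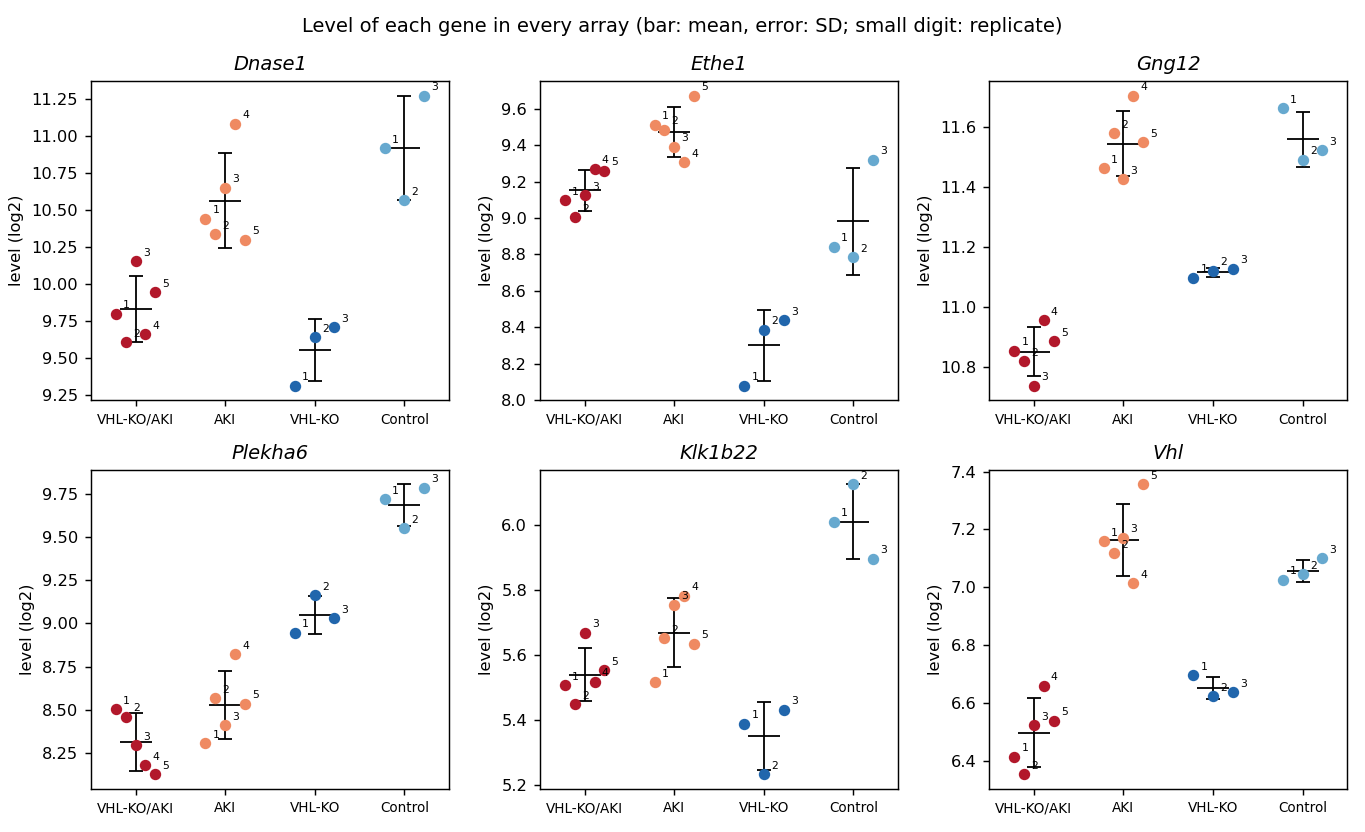
Level (log2) of Dnase1, Ethe1, Gng12, Plekha6, Klk1b22 and Vhl in every array, with groups along the x axis in the order VHL-KO/AKI, AKI, VHL-KO and Control. Points are arrays with their replicate number, horizontal bars are group means and error bars are SD. The VHL-KO/AKI arrays lie wholly below the AKI arrays for Dnase1, Ethe1, Gng12 and Vhl, and overlap them for Plekha6 and Klk1b22.

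In injured kidneys, 2 of the 5 genes fell with Vhl deletion. Gng12 averaged 61.9% and Dnase1 60.4% of their AKI levels in VHL-KO/AKI kidneys. Ethe1 was at 80% with no overlap between the groups, and did not pass the adjustment over all genes. Plekha6 and Klk1b22 were at 86.2% and 91.4%, with overlapping groups. The 2 genes that passed, both lower, compare with 1.4% of all 19938 genes called lower here (279 genes), and the 3 genes with every VHL-KO/AKI array below every AKI array compare with 1.58% of all genes (3.78% for groups apart in either direction). The median difference of all genes was -0.01. In whole kidney RNA, fewer cells of a type and less RNA per cell cannot be told apart.

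Gng12, the G protein subunit, was the brightest of the 5, above 97.9% of all genes by its mean level. Its levels were 10.85, 10.82, 10.74, 10.96 and 10.89 in the VHL-KO/AKI arrays, against 11.46, 11.58, 11.43, 11.70 and 11.55 in the AKI arrays. The groups were clearly apart, with narrow spread in each (10.85 ± 0.081 against 11.54 ± 0.11, SD, n = 5 each). The difference was -0.69 (SE 0.060, 95% interval -0.82 to -0.56, limma adjusted p = 2.23e-05). The exact 2-sided permutation test gave p = 0.00794, the smallest that 5 arrays against 5 allow. Without AKI replicate 4, the highest AKI array, the difference was -0.65 (limma adjusted p = 1.84e-05).

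Dnase1, the secreted DNA-cutting enzyme, had levels of 9.80, 9.61, 10.15, 9.66 and 9.95 in the VHL-KO/AKI arrays, against 10.44, 10.34, 10.65, 11.08 and 10.30 in the AKI arrays. All 5 VHL-KO/AKI arrays were lower than all 5 AKI arrays, and AKI replicate 4 was the highest. The difference was -0.73 (SE 0.16, 95% interval -1.08 to -0.38, limma adjusted p = 0.0273, exact permutation p = 0.00794). Without AKI replicate 4 it was -0.60, with a limma adjusted p of 0.0157. The call was lost without AKI replicate 3 or without VHL-KO/AKI replicate 1, 2 or 4 (limma adjusted p between 0.0569 and 0.0748), and with these groups fitted alone (limma adjusted p = 0.0579).

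Ethe1, which oxidises the persulphide made from hydrogen sulphide, had levels of 9.10, 9.003, 9.13, 9.27 and 9.26 in the VHL-KO/AKI arrays, against 9.51, 9.49, 9.39, 9.31 and 9.67 in the AKI arrays. The groups did not overlap, although the highest VHL-KO/AKI array and the lowest AKI array, replicate 4, lay close together. The difference was -0.32 (SE 0.11, 95% interval -0.55 to -0.09), with a limma adjusted p of 0.11 and an exact permutation p of 0.00794. Without AKI replicate 4 the difference was -0.36 and passed, with a limma adjusted p of 0.0452.

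Plekha6, the junction protein, had levels of 8.51, 8.46, 8.30, 8.18 and 8.13 in the VHL-KO/AKI arrays, against 8.31, 8.57, 8.41, 8.82 and 8.54 in the AKI arrays. AKI replicates 1 and 3 lay within the range of the VHL-KO/AKI arrays. The difference of -0.21 (SE 0.099, 95% interval -0.42 to -0.01) did not pass (limma adjusted p = 0.256, exact permutation p = 0.0952).

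Klk1b22, the kallikrein, was the dimmest of the 5 genes, above 43% of all genes by its mean level. Its levels were 5.51, 5.45, 5.67, 5.52 and 5.55 in the VHL-KO/AKI arrays, against 5.52, 5.65, 5.75, 5.78 and 5.63 in the AKI arrays. The ranges overlapped, and the difference of -0.13 (SE 0.067, 95% interval -0.27 to 0.01) did not pass (limma adjusted p = 0.321, exact permutation p = 0.0952). Without AKI replicate 4, the highest AKI array for both genes, the differences were -0.14 for Plekha6 and -0.10 for Klk1b22.

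In uninjured kidneys, where the 5 genes were chosen, every VHL-KO array lay below every Control array for each of them, as for 5.33% of all genes (17.2% for groups apart in either direction), and the limma fit called 0.0502% of all genes lower (10 genes). These shares are background only, since the choice used this contrast. Dnase1 had the largest difference of the 5. It had 9.32, 9.64 and 9.71 in the VHL-KO arrays, against 10.92, 10.57 and 11.27 in the Control arrays, which put its VHL-KO mean at 38.9% of the Control mean (difference -1.36, SE 0.21).

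The other 4 genes had smaller differences, with VHL-KO means at 62.4% to 73.6% of the Control means. Ethe1 had 8.08, 8.39 and 8.44 in the VHL-KO arrays, against 8.84, 8.79 and 9.32 in the Control arrays (difference -0.68, SE 0.14). Gng12 had 11.10, 11.12 and 11.13 in the VHL-KO arrays, against 11.66, 11.49 and 11.52 in the Control arrays (difference -0.44, SE 0.078). The VHL-KO arrays for Gng12 were the tightest group of any of the 5 genes, with an SD of 0.016.

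Plekha6 had 8.95, 9.16 and 9.03 in the VHL-KO arrays, against 9.72, 9.55 and 9.78 in the Control arrays (difference -0.64, SE 0.13). Klk1b22 had 5.39, 5.23 and 5.43 in the VHL-KO arrays, against 6.01, 6.12 and 5.90 in the Control arrays (difference -0.66, SE 0.086). Control replicate 3, which carries the Y-linked signal, was the highest Control array for Dnase1, Ethe1 and Plekha6 and the lowest for Klk1b22. Without it the differences were -1.19 for Dnase1, -0.51 for Ethe1, -0.46 for Gng12, -0.59 for Plekha6 and -0.72 for Klk1b22.

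**Figure D2:**
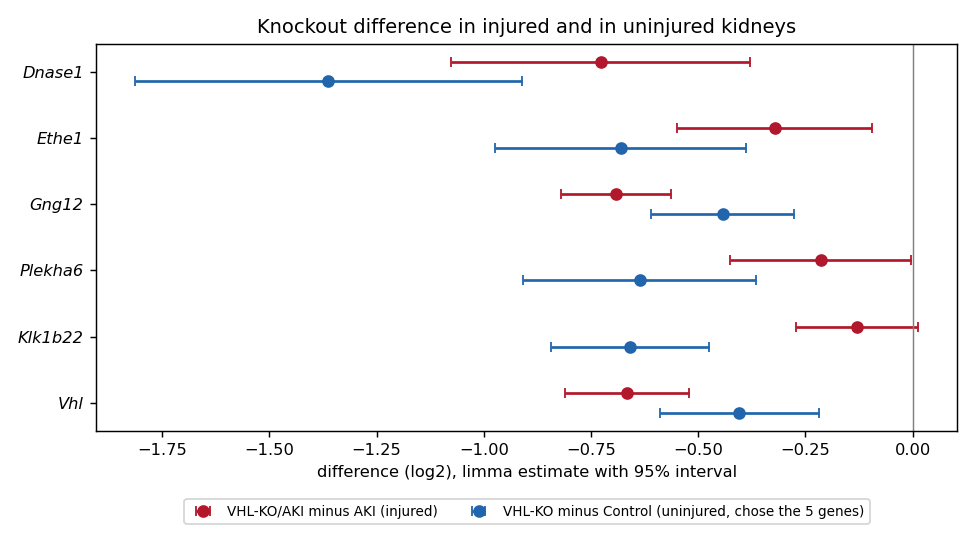
Difference with Vhl deletion (x axis, log2) for the 5 genes and Vhl, as the limma estimate with its 95% interval, for VHL-KO/AKI minus AKI (upper point of each pair) and VHL-KO minus Control (lower point, the contrast that chose the 5 genes). For Gng12 the injured difference is the larger in size (-0.69 against -0.44), and for the other 4 of the 5 genes the uninjured one is.

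All 5 differences were negative in both settings, at unlike sizes. The injured minus the uninjured difference was 0.53 for Klk1b22, 0.64 for Dnase1, 0.42 for Plekha6 and 0.36 for Ethe1. For Gng12 it was -0.25. Without Control replicate 3 it was 0.19 for Ethe1 and 0.46 for Dnase1, and with the sex-linked covariate it was 0.12 for Ethe1. These values hold the contrast that chose the genes, and choosing on it tends to make the uninjured difference the larger. They therefore carry no test of whether injury changed the difference. Over all genes this interaction called 0.01% (2 genes).

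Injury itself went with unlike changes among the 5 genes. These comparisons reuse the Control and VHL-KO arrays of the choice, so they are described without a test, beside 13.6% of all genes called in VHL-KO/AKI against VHL-KO (8.91% lower and 4.66% higher) and 28.1% in AKI against Control (14.9% lower and 13.2% higher). Groups did not overlap for 24.3% of all genes in VHL-KO/AKI against VHL-KO, with every injured array lower for 14.9%. In AKI against Control these shares were 27.3% and 13.8%. Plekha6 was lower in both, at 60.2% of the VHL-KO level in VHL-KO/AKI kidneys (difference -0.73, SE 0.11) and at 44.9% of the Control level in AKI kidneys (-1.15, SE 0.11). No injured array reached the lowest uninjured array of the same Vhl status.

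Ethe1 was higher in both, at 180% of the VHL-KO level in VHL-KO/AKI kidneys (0.85, SE 0.12) and at 141% of the Control level in AKI kidneys (0.49, SE 0.12), where AKI replicate 4 lay below Control replicate 3. Without Control replicate 3 the AKI against Control difference was 0.66. Gng12 was at 83.3% of the VHL-KO level in VHL-KO/AKI kidneys (-0.26, SE 0.070) and at 99% of the Control level in AKI kidneys (-0.01, SE 0.070). Dnase1 had 0.28 (SE 0.19) in VHL-KO/AKI against VHL-KO and -0.36 (SE 0.19) in AKI against Control, with overlapping groups in both. Without Control replicate 3 the second of these was -0.18, without Control replicate 2 it was -0.53, and without VHL-KO replicate 1 the first was 0.16. Klk1b22 had 0.19 (SE 0.077) in VHL-KO/AKI against VHL-KO and -0.34 (SE 0.077) in AKI against Control, without overlap in either. When sex-linked signal entered the fit as a covariate, the VHL-KO/AKI against VHL-KO difference became -0.78 for Dnase1, -0.67 for Ethe1, 0.07 for Gng12, -1.10 for Plekha6 and 0.83 for Klk1b22. The AKI against Control difference became -1.25 for Dnase1, -0.80 for Ethe1, 0.27 for Gng12, -1.46 for Plekha6 and 0.20 for Klk1b22. The sign thus turned in at least 1 comparison for every gene but Plekha6. The covariate splits the arrays nearly as injury does, apart from Control replicate 3, which carried both signals. The fit with it leans on that array and cannot separate injury from sex-linked signal.

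**Figure D3:**
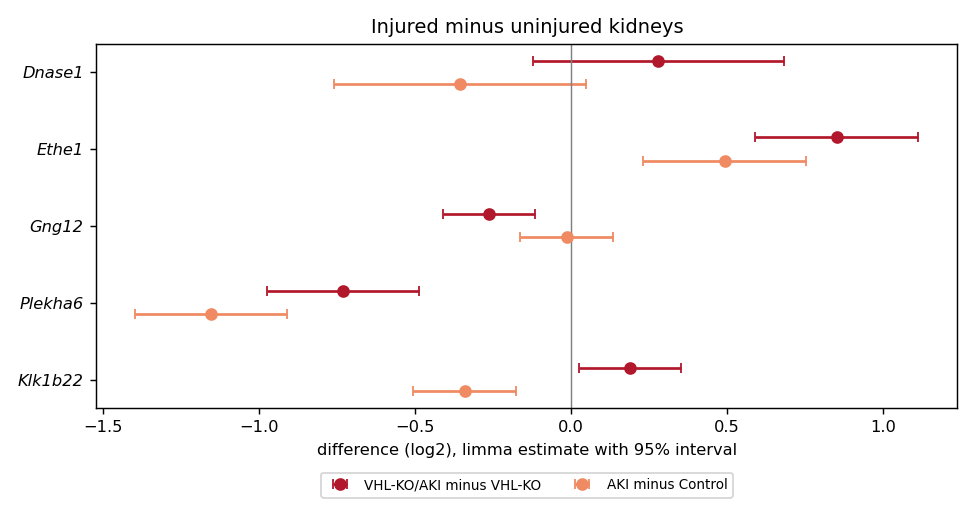
Injured minus uninjured difference (x axis, log2) for the 5 genes, as the limma estimate with its 95% interval, for VHL-KO/AKI minus VHL-KO (upper point of each pair) and AKI minus Control (lower point). Both points are above 0 for Ethe1 and below 0 for Plekha6, and the points of Dnase1 and of Klk1b22 lie on opposite sides of 0. Injury and sex-linked signal cannot be told apart in these values.

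The order of the 4 groups thus differed from gene to gene. Dnase1 ran from Control through AKI and VHL-KO/AKI down to VHL-KO, with a gap between ranges only at the AKI and VHL-KO/AKI step. Gng12 ran from Control and AKI, which overlapped, to VHL-KO and then VHL-KO/AKI, each apart from the group above it. Ethe1 was highest in AKI, then VHL-KO/AKI, then Control, which overlapped VHL-KO/AKI, and lowest in VHL-KO. Plekha6 ran from Control through VHL-KO to AKI, all apart, and to VHL-KO/AKI, which overlapped AKI. Klk1b22 ran from Control to AKI, then VHL-KO/AKI, which overlapped AKI, and was lowest in VHL-KO.

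Over the 16 arrays, which share the 4 groups, the 10 pairs among the 5 genes had correlations from -0.43 (Ethe1 with Plekha6) to 0.81 (Dnase1 with Klk1b22). Once group means were subtracted, they ranged from -0.45 (Ethe1 with Klk1b22) to 0.42 (Dnase1 with Plekha6), and that of Dnase1 with Klk1b22 was 0.23. Nearest genes were sought among tested genes without predicted or numbered names. Of these, the transcript most like Gng12 over all 16 arrays was Vhl itself (r = 0.91), followed by Baiap2l1 (0.88) and Slc4a9 (0.86). The arrays form separate clusters by Vhl status in that plane, and within groups the correlation of Gng12 with Vhl was -0.10.

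**Figure D4:**
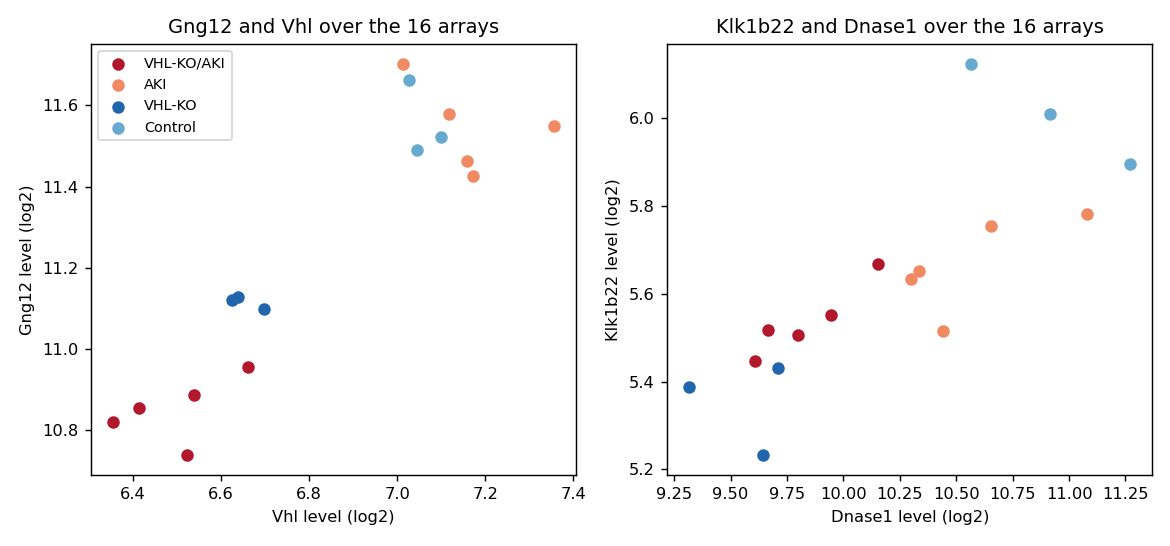
Levels (log2) of Gng12 against Vhl (left) and of Klk1b22 against Dnase1 (right) in the 16 arrays, coloured by group. In the left panel the 8 arrays of the doxycycline groups lie at lower left and the 8 others at upper right, and the correlation after subtraction of group means is -0.10. In the right panel the VHL-KO and VHL-KO/AKI arrays lie at lower left and the Control arrays at the top.

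By the same measure, the genes nearest to Dnase1 were Adap1 (r = 0.89), Acsm2 (0.88) and Lrrc8b (0.86), and those nearest to Ethe1 were Tmem120a (0.92), Actr1a (0.91) and Syt12 (0.90). Plekha6 was nearest to Avpr1a, a vasopressin receptor (0.95), Tmem86b (0.95) and Aadac (0.94). Klk1b22 was nearest to Dnase1, then to Akr1c21 (0.80) and Iqcd (0.79). After group means were subtracted, other genes led, among them Wdtc1 for Dnase1 (0.93), Nhp2 for Ethe1 (0.93), Hs6st1 for Gng12 (0.89), Akr1cl for Plekha6 (0.91) and Inpp5a for Klk1b22 (0.92). All of these are the highest among tested genes without predicted or numbered names, and are descriptions over 16 arrays.

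Apart from the 5 genes, the genes called lower in VHL-KO against Control were Abcc2, Cyp4f14, Dusp9 and a pair of genes with numbered names. Abcc2, an export pump for organic anions, also fell in injured kidneys (-0.52 in VHL-KO/AKI against AKI, SE 0.12, limma adjusted p = 0.033), beside -0.86 in VHL-KO against Control. It passed in 19 of 27 alternatives (limma adjusted p from 0.00828 to 0.0982), and not with the compared groups alone, with the replicate block, without AKI replicate 3 or 5 or without VHL-KO/AKI replicate 1, 2, 3 or 4. Cyp4f14, a cytochrome P450 of fatty acid metabolism, had -0.01 (limma adjusted p = 0.984) in injured kidneys beside -0.68 in uninjured ones. Dusp9, a phosphatase of MAP kinases, had 0.08 (limma adjusted p = 0.71) beside -0.54. The median difference of these 10 genes, which include the 5, was -0.17 in injured kidneys, against -0.01 for all genes. Of the 10, 3 passed there, all lower (Dnase1, Gng12 and Abcc2), beside 1.4% of all genes called lower. The count was 1 with the compared groups alone, without AKI replicate 3 or without VHL-KO/AKI replicate 1, 2 or 4.

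Relatives and partners of the 5 genes were read as 6 lists. In VHL-KO/AKI against AKI, 7 of 72 measured genes in 6 lists passed, 6 higher and 1 lower, beside 3.88% of all genes called in either direction and 2.48% called higher. This count was 14 without AKI replicate 4, 3 without Control replicate 3 and 0 without VHL-KO/AKI replicate 1 or 3. Without AKI replicate 4, calls over all genes rose too, from 774 to 2384. Over 27 alternatives Gnb5 passed in 24, Tspan33 in 19, Dnase2a in 17, Cdh1 and Tst in 10 each, Endog in 9 and Cdo1 in 7. In VHL-KO against Control, where 0.527% of all genes were called in either direction, the limma fit called 0 of these 72. The counts for AKI against Control below stand beside 28.1% of all genes called there, 14.9% lower and 13.2% higher. With the sex-linked covariate, which nearly repeats injury, none of the genes named for that comparison passed (adjusted p = 1).

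Among 11 other DNA-cutting enzymes and their inhibitor, 2 passed in VHL-KO/AKI against AKI, both higher, and the list median was -0.02. Endog, a mitochondrial endonuclease, rose by 0.41 (SE 0.10, limma adjusted p = 0.0419). Dnase2a, the DNA-cutting enzyme of lysosomes, rose by 0.31 (SE 0.074, limma adjusted p = 0.0324). In VHL-KO against Control the list median was 0.11. In AKI against Control 1 of the 11 passed, a smaller share than the 28.1% of all genes. It was Dffb, a nuclease of apoptosis, which rose (0.23, limma adjusted p = 0.0363) and passed in 16 of 27 alternatives.

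Among 10 other enzymes of sulphide and related sulphur metabolism, 2 passed in VHL-KO/AKI against AKI, both higher, and the list median was 0.24. Tst, the sulphur transferase rhodanese that acts beside Ethe1, rose by 0.72 (SE 0.19, limma adjusted p = 0.0447). Cdo1, which oxidises cysteine, rose by 0.62 (SE 0.17) with a limma adjusted p of 0.05 as rounded, just under the threshold. Sqor, which feeds persulphide to Ethe1, had 0.24 (SE 0.12, limma adjusted p = 0.286). In AKI against Control, beside 14.9% of all genes called lower, 5 of these 10 fell (3 without Control replicate 3) and 0 rose. Mpst (-1.73, limma adjusted p = 0.000163) and Suox (-1.13, limma adjusted p = 0.00278) were among those that fell. The list median in VHL-KO against Control was -0.19.

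Among 16 other G protein beta and gamma subunits, 1 passed in VHL-KO/AKI against AKI. It was Gnb5, a beta subunit, which rose by 0.34 (SE 0.072, limma adjusted p = 0.0226), and the list median was 0.00 to 2 decimals. In AKI against Control 2 of the 16 passed, beside 28.1% of all genes. Gnb5 fell (-0.73, limma adjusted p = 3.19e-05) and Gng5, another gamma subunit, rose (0.62, limma adjusted p = 0.0264), the second in 20 of 27 alternatives. The list median in VHL-KO against Control was 0.01.

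Among 19 genes of the PLEKHA family and its junction partners, 1 rose and 1 fell in VHL-KO/AKI against AKI, with a list median of -0.05. Tspan33, a membrane protein that binds the PLEKHA7 complex, rose by 0.48 (SE 0.11, limma adjusted p = 0.0294). Cdh1, the adherens junction protein E-cadherin, fell (-0.49, SE 0.13, limma adjusted p = 0.0427). Of the close relatives of Plekha6, Plekha7 had 0.28 (limma adjusted p = 0.0514) and Plekha5 had -0.11 (limma adjusted p = 0.463). In AKI against Control, beside 13.2% of all genes called higher and 14.9% lower, 3 of the 19 rose (1 without Control replicate 3) and 5 fell, including Cgnl1 (-0.72, limma adjusted p = 0.000165) and the kidney cadherin Cdh16 (-0.69, limma adjusted p = 0.000594). The list median in VHL-KO against Control was 0.05.

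Of 13 other tissue kallikreins, 8 had a row of their own. In VHL-KO/AKI against AKI, 0 of the 8 passed, beside 3.88% of all genes called. Negative differences were found for 6 of 8, and the median was -0.23. Their mean lay at 5.999 to 6.14 in the VHL-KO/AKI arrays and at 6.21 to 6.41 in the AKI arrays. These ranges did not overlap, as for 3.78% of all genes read singly. Without AKI replicate 4, 2 of the 8 passed, both lower, in a setting where calls over all genes rose from 774 to 2384. In VHL-KO against Control, which chose Klk1b22, 0 passed as well, beside 0.527% of all genes called. There 7 of 8 were negative, with a median of -0.34. Array means of 5.68 to 5.91 in VHL-KO and 6.05 to 6.17 in Control were again apart, as for 17.2% of all genes read singly. Klk1b9 came nearest in both, with -0.38 (limma adjusted p = 0.072) in injured and -0.61 (limma adjusted p = 0.0962) in uninjured kidneys. These genes are near-identical copies, and whether the probes tell Klk1b22 from them was not tested. Their signs are therefore not separate evidence beside Klk1b22. Of the kinin system, which acts on the peptides that kallikreins release, 8 of 10 genes were measured and 0 passed in either comparison, with medians of 0.10 in injured and -0.08 in uninjured kidneys. In AKI against Control, 1 of 8 kallikreins passed, Klk1b27, which rose (0.53, limma adjusted p = 0.0127) but did not pass without Control replicate 3, and 4 of 8 kinin genes fell, beside 13.2% of all genes called higher and 14.9% lower, among them the peptidases Cpn1 (-2.08, limma adjusted p = 0.00371) and Mme (-1.61, limma adjusted p = 0.000206).

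**Figure D5:**
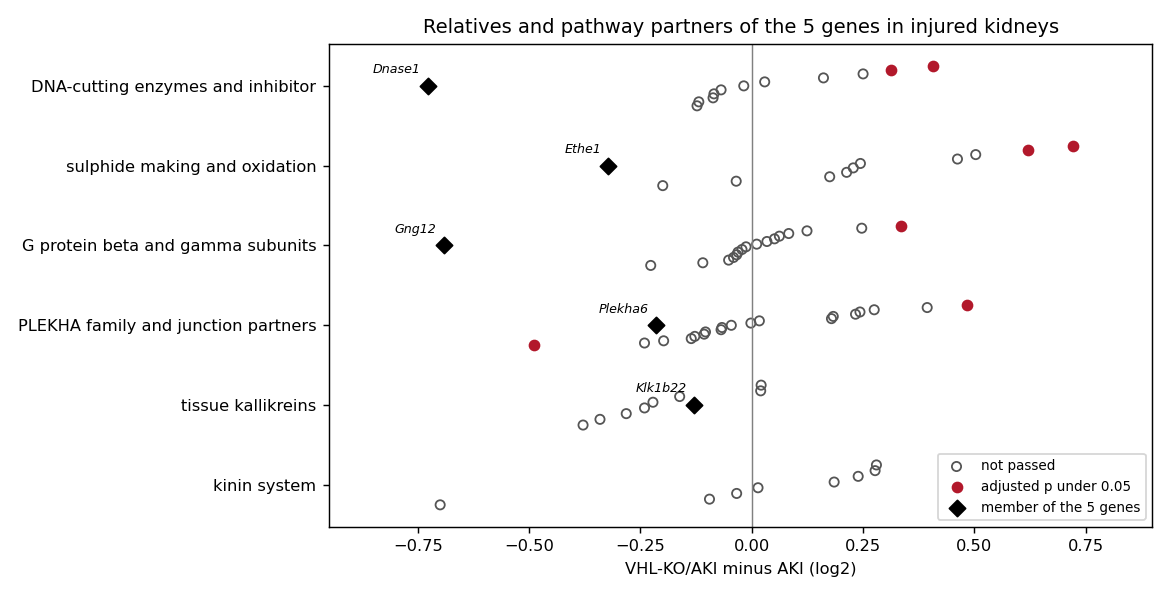
VHL-KO/AKI minus AKI difference (x axis, log2) of every measured gene in 6 lists of relatives and partners, 1 list a row, with the 5 genes as diamonds on the row of their own list. Filled circles passed at a limma adjusted p under 0.05 and open circles did not. Dnase1, Ethe1 and Gng12 lie left of every gene of their lists, and Plekha6 and Klk1b22 do not. Of the 7 filled circles, 6 lie right of 0.

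Markers of kidney cell types were read beside these values. Over all genes, 2.48% were called higher and 1.4% lower in VHL-KO/AKI against AKI (774 genes in all). In VHL-KO/AKI against AKI, 0 of 13 proximal tubule markers passed (median 0.33), and their mean lay at 11.14 to 11.79 in the VHL-KO/AKI arrays and 10.82 to 12.13 in the AKI arrays. Thick ascending limb markers had 2 of 6 higher (median 1.20), collecting duct markers 1 of 9 higher (0.32), distal convoluted tubule markers 0 of 5 (0.20), podocyte markers 0 of 4 (-0.04) and endothelial markers 1 of 7 higher (0.24). Leukocyte markers had 2 of 9 lower (-0.11), and fibroblast and smooth muscle markers had 1 of 6 higher and 1 lower (0.12). Without AKI replicate 4, proximal tubule markers had 6 of 13 higher (median 0.55) and thick ascending limb markers 5 of 6. Calls over all genes rose as well in that setting, to 2384. The tubule marker lists held 0 genes called lower with all arrays. With 1.4% of all genes called lower, lists this short would rarely hold such a gene. Of the 13 proximal tubule markers, 8 differences were positive and 5 negative (-0.335 to 0.673). The part of cell composition in the lower levels of Dnase1 and Gng12 was not tested.

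In VHL-KO against Control, 0 markers passed in each of these lists, beside 0.527% of all genes called in either direction. Groups did not overlap there for 17.2% of all genes, with every VHL-KO array lower for 5.33%. The proximal tubule markers had a median of -0.33, with 12 of 13 negative and array means of 12.09 to 12.23 in VHL-KO and 12.45 to 12.51 in Control. The endothelial markers had a median of 0.55, with 7 of 7 positive and array means of 9.77 to 10.03 in VHL-KO and 9.29 to 9.40 in Control. Medians of the other lists were -0.06 for thick ascending limb, 0.35 for distal convoluted tubule, -0.10 for collecting duct, 0.19 for podocyte, 0.15 for leukocytes and 0.06 for fibroblasts and smooth muscle. Male-biased kidney genes had 0 of 11 called and 11 of 11 negative (median -0.83), with array means of 9.01 to 9.15 in VHL-KO, 9.18 and 9.52 in Control replicates 1 and 2 and 11.86 in Control replicate 3. Without Control replicate 3 the male-biased median was -0.22, the proximal tubule median -0.28 and the endothelial median 0.49. The part of these shifts in the lower levels of the 5 genes was not tested.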

How the data were processed

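Halved mouse kidneys were profiled on 16 single-colour arrays. The deposited values are log2 levels per probe set, and Partek version 6.4 and RMA are named in the submitters' processing notes, without order or settings. The genome build of the array annotation is not given in the sources used here.

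Of 35556 rows, 21789 were paired with 1 gene symbol, 1621 with several and 12146 with none. Rows with 1 symbol were used, and for 999 genes with several rows the one with the highest mean stood for the gene, which left 19938 genes. Values lay between 3.34 and 14.71 and array medians between 5.92 and 6.03. No array pair was identical (0 pairs). For arrays, their number limits the precision.

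The model had 1 mean for each of the 4 groups and was fitted with limma 3.58.1 (R 4.3.3), leaving 12 residual and 2.83 prior degrees of freedom. Tests were 2-sided with Benjamini-Hochberg adjustment over all genes, and a gene was called at an adjusted p under 0.05. Group errors are SD, and errors of differences are SE of the fit. The 5 genes also had an exact permutation test in VHL-KO/AKI against AKI. The interaction is the knockout difference in injured minus that in uninjured kidneys. The fit was tested on simulated data with 200 changed genes. It recovered 98% of 2-fold changes with 9 false calls for VHL-KO/AKI against AKI. For the other group comparisons it recovered 91% to 94%, with 8 to 14 false calls. In VHL-KO/AKI against AKI all 5 genes differed by less than 2-fold, so this recovery does not extend to their sizes.

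The 5 genes, the lists and the markers were chosen with earlier results of these data known. Named genes are the 5, Vhl, sex chromosome genes, genes called lower in VHL-KO against Control without numbered names, up to 4 called genes a list with the largest difference in each knockout comparison (up to 2 for AKI against Control), and for each of the 5 the 3 nearest genes by correlation over all arrays and after subtraction of group means. The nearest genes were sought among tested genes without predicted or numbered names. Sqor, Plekha5, Plekha7 and Klk1b9 are named outside this rule, after their values were seen. Promoter sequences came from RefSeq (GRCm38.p6), with all 5 genes matched. Alternatives covered the rows tested, dim genes, scaling, variance, array weights, the groups fitted, the replicate block, the sex-linked level and each array left out.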

Additional observations from a re-analysis of the deposited data

How the results depend on the processing

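Gng12 kept its call in VHL-KO/AKI against AKI under all 27 alternatives (adjusted p from 3.78e-06 to 0.00122), and Plekha6 (0.17 to 0.57) and Klk1b22 (0.211 to 0.515) stayed uncalled. Dnase1 had an adjusted p from 0.00627 to 0.0748 and was lost in 5 of 27. With the compared groups alone the difference was still -0.727 (adjusted p = 0.0579). With 1 array left out it ranged from -0.807 to -0.597. Ethe1, uncalled with all arrays, passed with array weights (-0.401, adjusted p = 0.0249) and without AKI replicate 4, with a range of -0.363 to -0.272 when 1 array was left out. In VHL-KO against Control, all 5 genes stayed negative in all 27. That contrast chose the genes, so the kept sign follows from the choice and is no test.

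Genes called moved more. For VHL-KO/AKI against AKI, 774 became 2868 with array weights, 223 with the groups alone, and 229 to 2384 with 1 array left out (2384 without AKI replicate 4). For VHL-KO against Control, 105 became 64 with arrays centred, 319 with array weights, 18 with the sex-linked covariate, and 34 to 235 with 1 array left out. For AKI against Control, 5600 became 0 with that covariate, and 4248 to 6811 with 1 array left out. For VHL-KO/AKI against VHL-KO, 2705 became 4328 with array weights, 0 with the covariate, and 1683 to 3910 with 1 array left out. Its 1776 lower and 929 higher genes became 1265 and 1467 with centring, 1354 and 1177 with quantile scaling, and 1416 and 1177 with cyclic loess. For the interaction, 2 became 885 with array weights, 0 with every row tested, centring, quantile scaling, cyclic loess or the covariate, and 0 to 620 with 1 array left out. The 7 listed genes called became 16 with array weights, 1 with the groups alone, 3 with the covariate, and 0 to 14 with 1 array left out. The sex-linked covariate splits the arrays nearly as injury does, so its counts for injured against uninjured kidneys cannot separate injury from sex-linked signal. The causes of the other changes were not tested.

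Replicate numbers are shared between groups. Same-numbered arrays correlated at -0.381 to 0.204 after subtraction of group means, over 0.1 in 3 of 20 pairs. No pairing by number was seen, although so few arrays a group cannot exclude one. With the replicate block, Dnase1 (adjusted p = 0.0201) and Gng12 (0.000212) stayed called and Ethe1 (0.113) did not. The block gave 65 genes for VHL-KO against Control, 1 for the interaction and 3 listed genes.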
